A study of Rattus norvegicus with 10 samples.

Results

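The transcripts of rat lens explants after 12 hr at 100 ng/mL FGF2 were compared with those of explants at 0 hr, which had spent the night at 5 ng/mL FGF2 only. The comparison was chosen by the titles of the samples and rests on 4 of the 10 arrays of the series, 2 labelled 12 hours and 2 labelled 0 hour (reference). Lens explants are pieces of lens capsule with the epithelial cells attached to them. All of them came from 3-day-old pups, 6 explants went into each assay, and the explants of the 12 hr arrays had the same night at 5 ng/mL before the dose was raised. The other 6 arrays, 2 each at 2, 4 and 24 hr of the high dose, entered the same fit and are given where they show what is particular to 12 hr. Array names in the study's supplement place the 2 and 4 hr arrays in another run. In differences of 12 hr from 2 or 4 hr, time and run therefore cannot be told apart. No array of this series held explants kept at 5 ng/mL for a further 12 hr, so the higher dose and the longer culture cannot be told apart.

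The lens epithelium divides at low FGF and turns into lens fibers at high FGF, and 12 hr lies before most fiber proteins accumulate. FGF binds receptor tyrosine kinases (Fgfr1 to Fgfr4) and signals through Ras, ERK, and Ets transcription factors. The same signal induces its own brakes, the Sprouty and Spred proteins and the dual-specificity phosphatases (Dusp). A fiber cell leaves the cell cycle, elongates, fills with crystallins, builds the bead filament (Bfsp1, Bfsp2) and the channel protein Mip, and later loses its organelles.

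The signal of each array is an RMA intensity, on a linear scale and with array medians between 97.99 and 100.25. The 2 arrays of 12 hr differed from each other by a log2 SD of 0.170 over 31042 probe sets, and those of 0 hr by 0.161. The time points 2 and 4 hr were less even, at 0.288 and 0.300. Between 12 and 0 hr limma called 5886 probe sets at a Benjamini-Hochberg adjusted p under 0.05, which is 19.0% of those tested, with 2775 higher at 12 hr and 3111 lower. Over 1 probe set per gene, the brightest of 14217 genes, the calls were 11.7% higher and 11.9% lower, and these are the shares against which the counts of the gene groups below are to be read. The gene groups were written with earlier results of these data known, so a count above these shares is not a test of a group. In 34.4% of all probe sets both 12 hr arrays lay above both 0 hr arrays, and in 30.7% below, so separation of 2 arrays from 2 is by itself common, and no called probe set overlapped. The median rise among the called was 0.64 on the log2 scale and the median fall was −0.67. Falls were seldom steep: 51 probe sets rose 8-fold or more, while 7 fell that far. With 1 of the 4 arrays left out the calls dropped to 2980 (0 hr array 1), 2879 (0 hr array 2), 3081 (12 hr array 1) and 2936 (12 hr array 2), and no probe set called in both fits changed direction. Since no called probe set overlapped, its direction could not change when 1 of the 4 arrays was left out. The log2 ratio of the 5′ to the 3′ probe set of Actb, a measure of RNA integrity, was −1.12 and −1.21 at 0 hr, −1.68 and −2.13 at 2 hr, −1.37 and −2.08 at 4 hr, −1.30 and −1.43 at 12 hr and −1.75 and −1.88 at 24 hr. With this ratio in the fit 7158 probe sets were called between 12 and 0 hr. The p-values measure the spread between arrays described as biological duplicates, and the number of arrays limits their precision.

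Many genes of the feedback arm of FGF signalling were higher at 12 hr. Of 17 feedback regulators and Ets genes, 12 rose and none fell, with a median of 0.87 against 0.02 over all genes. Etv4, an Ets factor of the PEA3 group induced by FGF, read 151.3 and 112.8 at 0 hr and 1453 and 1513 at 12 hr, a log2 fold change of 3.51 ± 0.31 (SE, limma adjusted p = 0.00018). Its relative Etv5 went from 216.6 and 156.3 to 925.1 and 919.8, and Etv1 from 2152 and 1844 to 3547 and 3760. In these 3 genes every 12 hr array lay above both 0 hr arrays, as in every probe set called higher. Spry2, which restrains Ras and ERK signalling, read 602.8 and 447.1 at 0 hr against 3173 and 3192 at 12 hr (2.62 ± 0.15, adjusted p = 3.49e-05). Spry4 rose by 2.65 ± 0.23 and Spry1 by 1.38 ± 0.15. The phosphatase Dusp6, which acts on ERK in the cytoplasm, rose from 673.3 and 479.0 to 2863 and 3676 (2.51 ± 0.23, adjusted p = 0.000239).

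The 12 genes did not share a course in time. Spry1 read 374.0 and 392.9 at 2 hr and 345.9 and 310.6 at 4 hr, and stood at 1108 and 1274 at 12 hr. The difference from 4 hr was 1.86 (limma adjusted p = 0.000168). It was larger than the difference from 0 hr, because the 4 hr mean of Spry1 lay below its 0 hr mean. Dusp5, a nuclear ERK phosphatase, read 626.4 and 901.3 at 2 hr, 315.3 and 356.6 at 4 hr, and 168.4 and 164.3 at 12 hr, which was still above its 67.46 and 53.32 at 0 hr (1.47 ± 0.19, adjusted p = 0.00102). Errfi1, an inhibitor of the EGF receptor, also peaked at 2 hr: 214.3 and 213.3 at 0 hr, 1633 and 1901 at 2 hr and 290.3 and 324.4 at 12 hr. Of the 12 calls 9, 9, 9 and 8 held when 0 hr array 1, 0 hr array 2, 12 hr array 1 or 12 hr array 2 was left out. The 5 not called were Spry3, Dusp1, Dusp4, Dusp10 and Dusp14, between −0.22 and 0.25. Spred3, another inhibitor of the pathway, has a second probe set that was not called (0.21, adjusted p = 0.167).

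**Figure D1:**
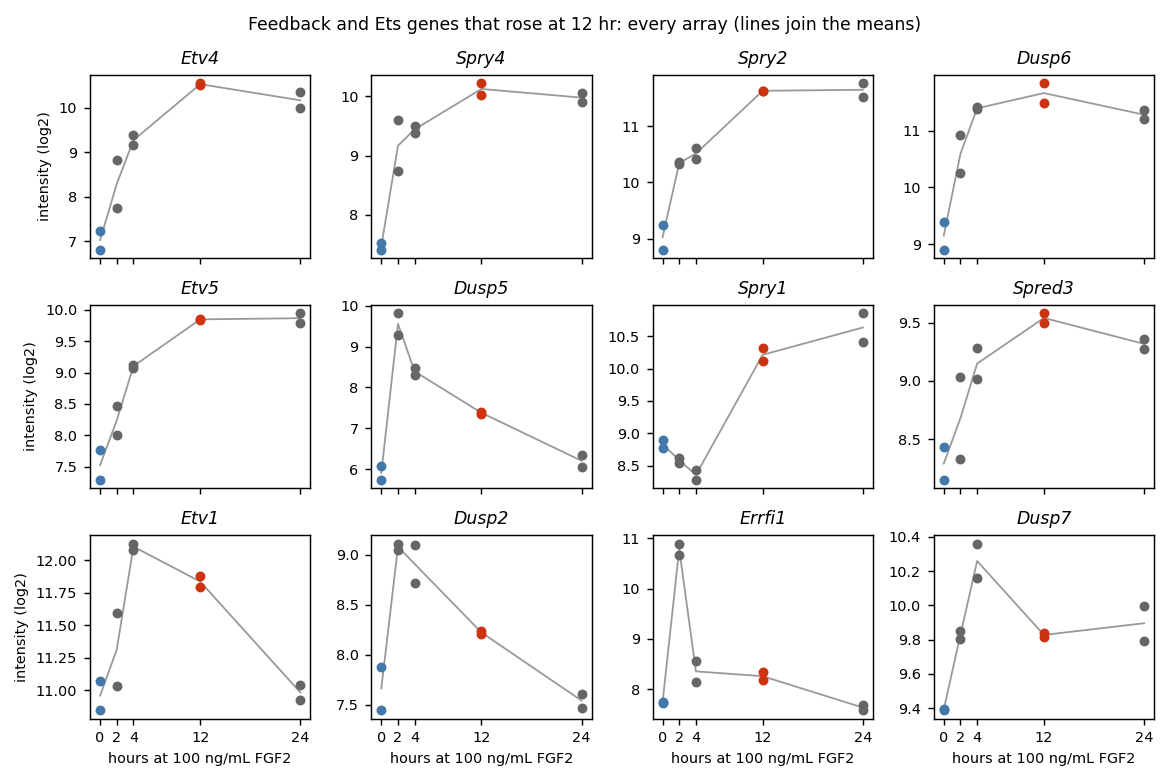
Intensity on the log2 scale (vertical axes) against hours at 100 ng/mL FGF2 (horizontal axes) for the 12 feedback and Ets genes that rose at 12 hr; each point is 1 array and lines join the means of 2 arrays, with 0 hr in blue, 12 hr in red and the other times in grey. The mean of Spry1 lies below 0 hr at 4 hr (345.9 and 310.6) and above it at 12 hr (1108 and 1274), whereas Errfi1 and Dusp5 peak at 2 hr.

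The promoter of 1 of these genes is shown for the Ets letters in it, since Ets factors carry the ERK signal to its target genes. It comes from RefSeq (GRCr8), as do all promoters below, runs 5′ to 3′ on the strand of the gene and stops before the start of transcription. Capitals mark CCGGAA, the core of an Ets site, found on the strand shown. Spry2 lies at chr15:89112032-89112157, minus strand, and the match starts 171 bases before the start site.
Spry2: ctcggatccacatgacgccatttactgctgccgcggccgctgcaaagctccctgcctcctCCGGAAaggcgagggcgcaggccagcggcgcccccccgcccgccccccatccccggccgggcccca
The letters CCGGAA, read on either strand, are in 15.0% of 33469 rat promoters of this length (250 bases before to 50 after the start). Among the feedback genes with a promoter in the table they are in 3 of the 11 that rose (Dusp5, Spry2, Spry4) and in 1 of the 4 not called (Dusp14).

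The receptors moved in opposite directions. Fgfr1 rose from 908.7 and 1075 to 1543 and 1578 (0.66 ± 0.12, adjusted p = 0.00483), and Fgfr4 from 86.63 and 111.4 to 167.7 and 134.3. Fgfr3 fell from 2803 and 2961 to 1982 and 1758 (−0.63 ± 0.15, adjusted p = 0.0173). A dimmer probe set of Fgfr3 differed by −0.29 and was not called (limma adjusted p = 0.288). For Fgfr2 the brightest of 5 probe sets fell from 3548 and 3567 to 1865 and 1855 (−0.94 ± 0.10, adjusted p = 0.000459), and the other 4, all much dimmer, were not called. Among ligands only Fgf9 passed, at 30.74 and 28.97 against 59.52 and 59.82 (1.00 ± 0.17, adjusted p = 0.00364), and 1 of its 2 probe sets was called. Of 16 receptors and ligands, 3 rose and 2 fell. With 0 hr array 1, 0 hr array 2, 12 hr array 1 or 12 hr array 2 left out, the rises were 2, 3, 2 and 2 and the falls were 1 each time.

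Immediate early genes, transcription factors switched on by growth factors within minutes, were in part below their 4 hr level and in part still above 0 hr. Of 28 measured, 10 were above 0 hr and none below, with a median of 0.42, and 10 were below their own 4 hr level, where 11.9% of all probe sets were lower than at 4 hr. Here and below, shares against 4 hr are over probe sets and not over genes, so they are only a rough measure for counts of genes. Egr1 read 2528 and 2369 at 0 hr, 12892 and 14051 at 4 hr and 7701 and 7586 at 12 hr (1.64 ± 0.10 against 0 hr, adjusted p = 4.12e-05). Egr2 was at 117.9 and 120.5 at 0 hr, 1262 and 1995 at 4 hr and 575.3 and 534.0 at 12 hr. A dimmer probe set of Egr2 differed by 0.10 from 0 hr and was not called (limma adjusted p = 0.761). Nr4a1, a nuclear receptor without a known classical ligand, stayed where it had been at 4 hr (164.3 and 224.7 at 4 hr, 164.9 and 250.6 at 12 hr), 2.72 ± 0.32 above 0 hr. Myc rose from 63.24 and 44.87 to 199.6 and 155.4 (1.73 ± 0.29, adjusted p = 0.00414) and at 24 hr was back at 44.82 and 71.15. Fos, the best known of the group, differed from 0 hr by −0.02 (adjusted p = 0.956). Omission of 0 hr array 1, 0 hr array 2, 12 hr array 1 or 12 hr array 2 left 7, 6, 7 and 6 of the 10.

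**Figure D2:**
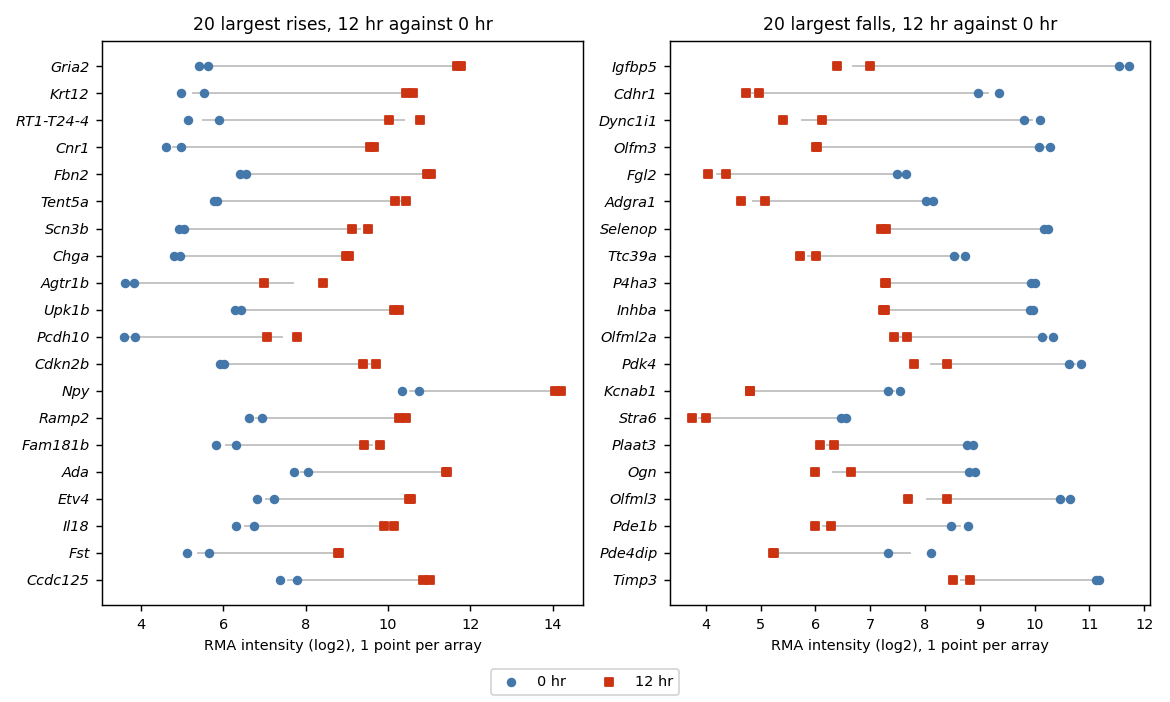
RMA intensity on the log2 scale (horizontal axes) of the genes with the 20 largest rises and the 20 largest falls from 0 to 12 hr; blue circles are the 2 arrays of 0 hr and red squares the 2 arrays of 12 hr, joined by a grey line between the means. Most pairs of arrays lie close together, and Agtr1b, at 127 and 343.2 on the 12 hr arrays, is the widest of the rises.

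The genes with the largest rises and falls were chosen by size in this contrast, from those whose arrays do not overlap. Their values describe and do not test. Gria2, a subunit of the AMPA glutamate receptor, read 49.56 and 42.19 at 0 hr, 228.4 and 147.9 at 4 hr and 3266 and 3503 at 12 hr (74.0-fold higher), and its second probe set rose as well, by 4.32. Krt12, the keratin of the corneal epithelium, went from 31.66 and 46.65 to 1562 and 1378 (38.2-fold), and Fbn2, a fibrillin of matrix microfibrils, from 93.42 and 84.44 to 1968 and 2127 (23.0-fold). Scn3b, a sodium channel subunit, was 20.3-fold higher on the probe set with the larger change, Chga, a protein of secretory granules, 17.7-fold, and Pcdh10, a protocadherin, 13.1-fold. In all 6 the arrays of 12 hr lay above those of 0 hr, as this choice required.

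Other large rises are receptors or transmitters better known from nerve cells and vessels. Cnr1, the cannabinoid receptor of the brain, was at 24.34 and 31.40 at 0 hr and at 811.9 and 755.5 at 12 hr, 28.3-fold higher, and at 24 hr it read 98.96 and 221.3. A dimmer probe set of Cnr1 differed by 0.31 from 0 hr and was not called (limma adjusted p = 0.312). Agtr1b, an angiotensin II receptor, went from 14.13 and 12.32 to 127.0 and 343.2, and its 2 arrays of 12 hr differed more than those of the other rises. Ramp2, a partner protein of the adrenomedullin receptor, went from 99.44 and 123.3 to 1394 and 1226. Npy, the neuropeptide Y precursor, read 1292 and 1734 at 0 hr and 17171 and 18805 at 12 hr (12.0-fold). In all 4 the arrays of 12 hr lay above those of 0 hr, as the same choice required. Of the 4, Cnr1 and Agtr1b were higher at 12 than at 24 hr by the test of that difference, by 2.40 (limma adjusted p = 0.0144) and 2.08 (adjusted p = 0.0371), and Npy and Ramp2 were not (0.07 and −0.08).

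Further large rises include enzymes, a cytokine and surface proteins of other epithelia. Tent5a, a poly(A) polymerase of the secretory pathway, read 54.31 and 57.58 at 0 hr, 477.7 and 597.7 at 2 hr and 1149 and 1379 at 12 hr (22.5-fold). Ada, adenosine deaminase, rose from 210.9 and 264.6 to 2744 and 2776. Upk1b, a uroplakin of the urinary tract lining, went from 77.56 and 86.83 to 1230 and 1127. Il18, an interleukin of the IL-1 family, was at 108.2 and 78.90 at 0 hr, 859.7 and 1164 at 4 hr, 1130 and 958.4 at 12 hr and 140.9 and 135.3 at 24 hr. Il18 was 2.91 higher at 12 than at 24 hr (limma adjusted p = 0.000519). Fam181b, Ccdc125 and RT1-T24-4 were higher by 11.7-fold, 10.3-fold and 29.7-fold. RT1-T24-4 is an MHC class I gene with near-identical relatives whose transcripts this probe set may also bind, so its identity is uncertain.

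The largest fall was that of Igfbp5, an IGF-binding protein, from 3356 and 2975 at 0 hr to 128.1 and 83.58 at 12 hr (30.5-fold lower), with 4 of its 5 probe sets called lower. Cdhr1, a photoreceptor cadherin, fell from 650.0 and 497.5 to 31.24 and 26.63 (19.7-fold), and Olfm3, an olfactomedin, from 1085 and 1244 to 65.54 and 64.43 (17.9-fold). The groups did not overlap in these 3, as their choice required. Selenop, the plasma selenium carrier, was 7.78-fold lower on 1 of its 2 probe sets, Ttc39a 6.76-fold, Kcnab1, a potassium channel subunit, 6.18-fold, Stra6, the receptor for retinol-binding protein, 6.18-fold, and Plaat3, a phospholipase of lens organelle loss, 6.10-fold. A dimmer probe set of Kcnab1 differed by −0.21 and was not called (limma adjusted p = 0.349).

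Other falls were in genes for a motor subunit, matrix proteins and signalling enzymes. Dync1i1, an intermediate chain of cytoplasmic dynein, read 898.6 and 1094 at 0 hr, 368.3 and 668.8 at 4 hr and 69.33 and 42.22 at 12 hr (18.3-fold lower). P4ha3, a prolyl hydroxylase that modifies collagen, dropped from 979.4 and 1032 to 155.4 and 154.2, with very even arrays (−2.70 ± 0.10). Fgl2, a fibrinogen-like prothrombinase, dropped from 179.4 and 200.4 to 20.67 and 16.46. Adgra1, an adhesion G protein-coupled receptor, dropped from 260.2 and 284.6 to 33.92 and 24.98. The groups did not overlap in any of these 4, again as their choice required. Ogn, Olfml2a and Olfml3, secreted proteins of the matrix, were 5.78-, 6.43- and 5.72-fold lower. Timp3, an inhibitor of metalloproteinases, was 5.58-fold lower, and all 4 of its probe sets fell. Pde1b and Pde4dip, a phosphodiesterase and a phosphodiesterase-binding protein, were 5.63- and 5.59-fold lower with 4 hr arrays at 66.04 and 100.8 for Pde1b and at 31.70 and 41.55 for Pde4dip.

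Genes of DNA replication fell while those of mitosis did not pass the test. Of 32 genes of replication and the G1/S step, 12 fell and none rose, with a median of −0.57. The calls include 4 subunits of the replicative helicase. Mcm4, 1 subunit of the replicative helicase, read 1388 and 1374 at 0 hr and 634.0 and 616.7 at 12 hr (−1.14 ± 0.23, adjusted p = 0.00881). Other helicase subunits followed, Mcm6 from 1468 and 1529 to 764.8 and 800.8, Mcm5 from 577.0 and 532.4 to 344.0 and 313.1, and Mcm2 from 1191 and 1213 to 770.4 and 728.0. Prim1, the primase, fell from 2010 and 2099 to 1023 and 867.4, and Cdt1, which loads the helicase, from 765.4 and 650.1 to 340.7 and 350.9. Rrm1, a subunit of ribonucleotide reductase, fell by 0.92, Pola1 by 0.71 and the ligase Lig1 by 0.58. Orc1, Chaf1b and Cdk2 complete the 12. Pcna, the sliding clamp, differed by −0.23 and was not called.

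The count of falls depended on the arrays used. It was 2 without 0 hr array 1, 2 without 0 hr array 2, 3 without 12 hr array 1 and 2 without 12 hr array 2. In a fit that left out the uneven 2 and 4 hr arrays it was 24, with array quality weights 21, and by the analysis of variance of the study's methods at an unadjusted P under 0.05 it was 23. Of the 32 genes, 5 were lower at 12 than at 4 hr, where 11.9% of all probe sets were. Limma called none of the 32 between 12 and 24 hr, where it called 4.34% of all probe sets. In the group of 32 genes of G2 and mitosis the differences from 0 hr ran from −0.48 to 0.51 with a median of 0.02. Limma called none of them; at an unadjusted p under 0.05 there were 2 higher and 2 lower, and by the analysis of variance 3 higher and 4 lower. Plk1 and Ube2c stood at the upper end and Pttg1 and Mki67 at the lower. Against 4 hr, 11 of the 32 were lower at 12 hr, as were 11.9% of all probe sets.

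**Figure D3:**
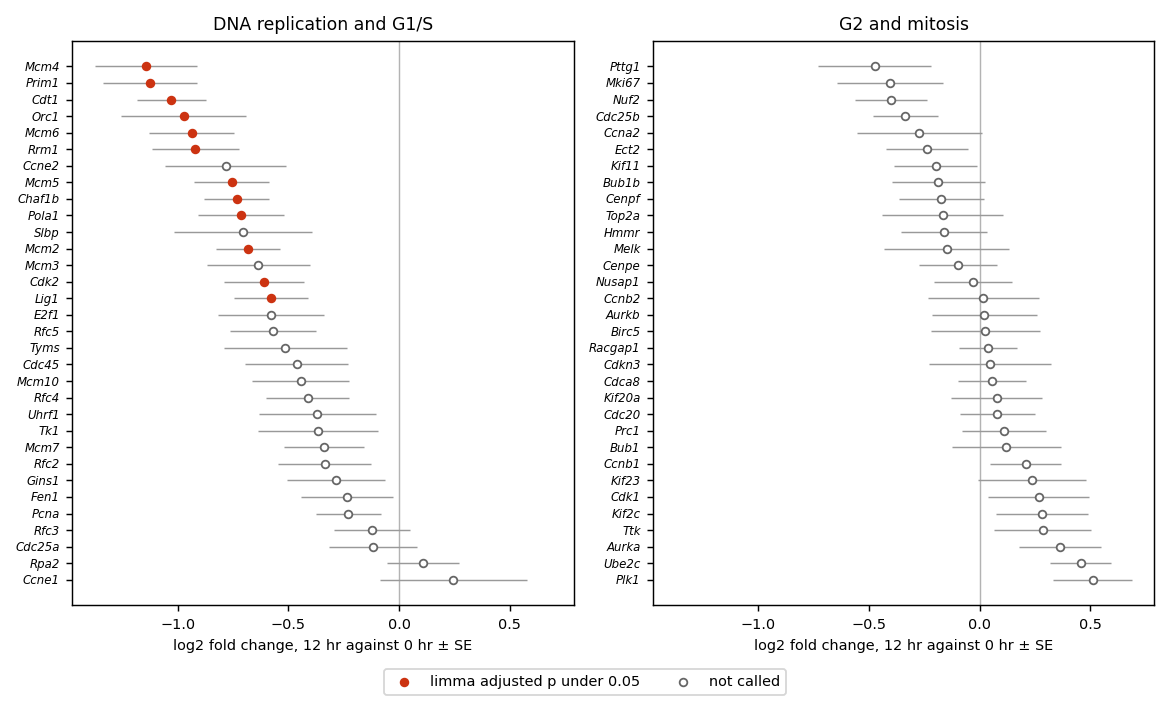
Log2 fold change of 12 hr against 0 hr (horizontal axes, bars are ± 1 SE from limma, 2 arrays each) for 32 genes of DNA replication and G1/S (left) and 32 of G2 and mitosis (right); filled red points passed an adjusted p under 0.05. The left group is centred at −0.57 and holds 12 called falls, and the right one is centred at 0.02 and holds none.

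The promoters of 4 replication genes that fell are shown for the E2F sites they carry, the element that times these genes to the end of G1. Capitals mark TTTCGCGC or TTTGGCGC on either strand, overlapping matches run together, and all stretches end before the start site. Mcm2 is at chr4:122918095-122918138, minus strand, with matches that start 14 and 10 bases before the start site. Mcm5 is at chr19:13488570-13488641, plus strand (213 and 209 bases), Mcm6 at chr13:42404450-42404521, minus strand (139 and 135 bases), and Pola1 at chrX:62342490-62342557, minus strand (172 bases).
Mcm2: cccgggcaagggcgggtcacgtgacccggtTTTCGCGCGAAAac
Mcm5: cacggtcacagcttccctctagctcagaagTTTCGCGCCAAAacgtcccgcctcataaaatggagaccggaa
Mcm6: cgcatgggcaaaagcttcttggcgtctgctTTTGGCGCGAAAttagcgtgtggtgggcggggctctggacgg
Pola1: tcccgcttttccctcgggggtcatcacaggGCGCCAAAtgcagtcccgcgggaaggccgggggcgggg
These letters are in 265 of 33469 promoters (0.792%), and in 13 of the 28 replication genes with a promoter in the table. The 13 include 6 of the 10 that fell (Cdt1, Lig1, Mcm2, Mcm5, Mcm6, Pola1) and 7 of the 18 not called (Cdc25a, Gins1, Mcm3, Mcm7, Rfc3, Tyms, Uhrf1). A match of letters is a description of the sequence and not a mapped binding site.

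Inhibitors of cyclin-dependent kinases did not move as 1 group, with 4 rises and 4 falls among 18 inhibitors, cyclins and partners. Cdkn2b, which encodes p15 and blocks Cdk4 and Cdk6, read 60.45 and 64.67 at 0 hr, 649.2 and 324.6 at 4 hr and 670.2 and 844.6 at 12 hr (3.59 ± 0.45, adjusted p = 0.000892). Its neighbour Cdkn2a stayed dim, at 16.67 and 14.56 against 49.60 and 53.82 (1.73 ± 0.25). Cdkn1a, which encodes p21, rose from 749.2 and 926.0 to 1704 and 1551 (0.96 ± 0.22, adjusted p = 0.0143). Cdkn1c, which encodes p57, the inhibitor known for fiber cells, was lower at 12 hr: 4864 and 4937 at 0 hr, 2909 and 2803 at 12 hr and 6277 and 5202 at 24 hr (−0.78 ± 0.15 against 0 hr, adjusted p = 0.00734), and the difference from 24 hr passed as well (adjusted p = 0.00959). Cdkn2c, Cdkn2d and the cyclin Ccnd3 fell by 0.93, 0.69 and 1.19, and Cdk4 rose by 0.39. Leaving out 0 hr array 1, 0 hr array 2, 12 hr array 1 or 12 hr array 2 left 2, 3, 2 and 2 of the rises and 3, 2, 4 and 2 of the falls.

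Genes of ribosome biogenesis rose in small steps. Of 38 genes that make and assemble ribosomes in the nucleolus, 21 rose and none fell, and the median was 0.41. Rrp9, a protein of the U3 snoRNP, changed most, from 507.6 and 513.6 to 1143 and 1074 (1.12 ± 0.11, adjusted p = 0.000285), then Bop1, needed for the large subunit, from 513.2 and 505.4 to 966.8 and 849.9 (0.83 ± 0.10). Nop2, an rRNA methyltransferase, went from 705.3 and 722.2 to 1118 and 1082. Polr1a and Polr1b, the large subunits of RNA polymerase I, rose by 0.50 and 0.59. The arrays of 12 hr lay above those of 0 hr in each of these 5, as in every probe set called higher. Of the 38, 14 were higher than at 4 hr, where 11.0% of all probe sets were. None differed from 24 hr, where 4.34% of all probe sets did. The count of 21 was 12, 6, 8 and 11 when 0 hr array 1, 0 hr array 2, 12 hr array 1 or 12 hr array 2 was omitted. By contrast the 28 cytosolic ribosomal proteins, which the finished ribosome is built of, all lay between −0.11 and 0.16. Many of the 28 are near the top of the brightness range, such as Rps29 at a mean log2 intensity of 14.28, where a rise may not show. Limma called none of the 28 at adjusted p and none at unadjusted p, and the analysis of variance had 1 higher and 2 lower at an unadjusted P.

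Some genes of amino acid supply were also higher at 12 hr. Of 19 aminoacyl-tRNA synthetases 6 rose, by 0.34 (Lars1) to 0.54 (Yars1), a count that was 4, 0, 1 and 0 without 0 hr array 1, 0 hr array 2, 12 hr array 1 or 12 hr array 2. Of 23 genes of the amino acid response led by Atf4, 6 rose and none fell. Eif4ebp1, a repressor of translation, rose by 1.16. Shmt2, the mitochondrial serine hydroxymethyltransferase, went from 882.3 and 798.5 to 1793 and 1814 (1.10 ± 0.10, adjusted p = 0.000205), and Aldh18a1, of proline synthesis, from 738.2 and 709.0 to 1423 and 1388. Atf4 itself differed by −0.07 (adjusted p = 0.841). Against 24 hr, 6 of the 23 were higher at 12 hr and none lower, where 2.91% of all genes were higher and 3.00% lower. Asns, asparagine synthetase, shows it best: 1374 and 1184 at 0 hr, 446.0 and 406.3 at 2 hr, 1830 and 1895 at 12 hr and 364.7 and 299.5 at 24 hr (2.49 above 24 hr, adjusted p = 0.000989). Against 0 hr Asns was not called at 12 hr (0.55, limma adjusted p = 0.0956), and at 24 hr it differed by −1.95. Phgdh, the entry to serine synthesis, read 4097 and 4050 at 12 hr and 2035 and 1881 at 24 hr.

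Most amino acid transporters were not called, and the calls went both ways. Slc7a5, which carries leucine and other large neutral amino acids, rose from 495.6 and 426.3 to 1589 and 1571 (1.78 ± 0.17, adjusted p = 0.000267), and Slc1a5, a glutamine carrier, from 487.6 and 414.7 to 1087 and 1293. Slc1a1, Slc38a3, Slc38a4 and Slc7a11, carriers of glutamate, glutamine, neutral amino acids and cystine, fell by 1.75, 1.36, 1.54 and 1.26. Slc7a3, a carrier of arginine and lysine, read 933.3 and 1037 at 0 hr, 256.4 and 153.7 at 2 hr and 621.6 and 804.6 at 12 hr, which was not called, and 110.4 and 91.30 at 24 hr. Of the 25 measured 4 rose and 4 fell, where 11.7% of all genes rose and 11.9% fell. The rises were 2, 2, 2 and 4 and the falls 3 each when 0 hr array 1, 0 hr array 2, 12 hr array 1 or 12 hr array 2 was left out.

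The BMP group held both rises and falls. BMPs are growth factors that act through Smad1, Smad5 and Smad8, with Id and Msx genes as their usual targets and Noggin and follistatin as antagonists. Of 26 genes 8 rose and 4 fell. The ligands Bmp2 and Bmp4 went from 814.3 and 861.4 to 3165 and 3103 (1.90 ± 0.21, adjusted p = 0.000486) and from 28.21 and 32.90 to 105.7 and 212.8 (2.30 ± 0.33, adjusted p = 0.00165), and Bmp7 from 389.6 and 428.3 to 212.1 and 194.3 (−1.01 ± 0.16). Among targets Msx1 went from 116.4 and 135.0 to 1022 and 1034 (3.04 ± 0.19, adjusted p = 5.02e-05). Of the 4 Id genes, Id3 rose by 1.15, Id4 by 1.36 and Id1 with an adjusted p of 0.00529, while Id2 differed by 0.82 and was not called (limma adjusted p = 0.0554). Msx1 did not differ between 12 and 24 hr beyond the spread (1501 and 1324 at 24 hr). Antagonists rose as well, Fst (follistatin) from 35.00 and 50.61 to 448.4 and 442.1 and Nog from 18.84 and 20.17 to 71.19 and 50.95. Chrd, Bambi and Fstl1 fell. When 0 hr array 1, 0 hr array 2, 12 hr array 1 or 12 hr array 2 was left out, 7 rises remained each time and 4, 2, 3 and 2 falls.

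TGF-β and activin genes went the other way, with 1 rise and 5 falls among 17. Inhba, the activin A subunit, read 967.2 and 1007 at 0 hr, 214.9 and 223.1 at 4 hr and 153.6 and 150.7 at 12 hr (−2.70 ± 0.20, adjusted p = 9.42e-05). Tgfb3 fell from 218.7 and 245.8 to 80.89 and 66.39, and Tgfbi, a matrix protein induced by TGF-β, from 446.5 and 314.7 to 87.41 and 90.18. Smad3 and the receptor Tgfbr1 fell by 0.48 and 0.34. Tgfb1 alone of the 17 rose, from 130.3 and 117.5 to 312.3 and 289.5 (1.28 ± 0.13, adjusted p = 0.000371). With 0 hr array 1, 0 hr array 2, 12 hr array 1 or 12 hr array 2 omitted the falls were 2, 3, 2 and 2.

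Of 28 Wnt genes 3 rose and 7 fell. The receptor Fzd4 fell from 1180 and 1191 to 360.0 and 335.2 (−1.77 ± 0.09, adjusted p = 2.26e-05; 1 of its 2 probe sets) and the mediator Tcf7l2 from 678.5 and 722.8 to 335.9 and 298.9. Wnt4 rose from 31.61 and 28.33 to 128.9 and 104.0 (1.95 ± 0.23, adjusted p = 0.000767) after 180.9 and 320.1 at 4 hr, and Wnt7a from 109.0 and 110.2 to 222.7 and 221.0. The 7 falls were 5, 4, 5 and 3 without 0 hr array 1, 0 hr array 2, 12 hr array 1 or 12 hr array 2, and the 3 rises were 2, 1, 1 and 2. In the Notch pathway, in which cells signal to their neighbours through Jagged and Delta, 4 of 22 rose and 1 fell. The ligand Jag1 read 1487 and 1471 at 0 hr and 4092 and 4292 at 12 hr (1.50 ± 0.36, adjusted p = 0.0199), and Jag2 93.16 and 77.61 against 273.8 and 274.9 (1.69 ± 0.21) before 91.36 and 90.52 at 24 hr. Their targets Nrarp and Hes1 rose by 1.36 and 0.47. The result for Hes5 depends on the probe set: the brightest differed by 0.05 and was not called. The other, nearly as bright, rose by 1.32 (limma adjusted p = 0.000305). The fall was that of Rbpj, the DNA-binding partner of Notch (−0.35). In this group the rises were 2, 2, 3 and 2 when 0 hr array 1, 0 hr array 2, 12 hr array 1 or 12 hr array 2 was left out, and the fall was lost in all 4 omissions.

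Epha2, the ephrin receptor that human cataract families have tied to the lens, rose from 700.7 and 646.3 to 3295 and 3335 (2.30 ± 0.14, adjusted p = 4.09e-05), and Epha5 from 42.48 and 46.95 to 146.2 and 192.8. Ephb3 and the ligand Efnb3 fell by 1.26 and 0.76. These 4 were the calls among 14 Eph receptors and ephrins, and the 2 falls were 1 without each of 0 hr array 1, 0 hr array 2, 12 hr array 1 and 12 hr array 2. Of 15 genes of the IGF system 3 rose and 1 fell. The rises were Igf2 (151.7 and 158.5 against 311.0 and 383.7), Igfbp2 and Irs2, and the fall was Igfbp5 (−4.93 ± 0.40, limma adjusted p = 0.000128), a call kept in each omission. For Igf2 this was the brightest of 4 probe sets and the other 3 were not called. The 3 rises of the IGF system were 1, 1, 2 and 1 without the same arrays in turn, namely 0 hr array 1, 0 hr array 2, 12 hr array 1 and 12 hr array 2.

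Cell adhesion genes moved in both directions. Of 25 cadherins and relatives 9 rose and 5 fell. Cdh1, the E-cadherin of the lens epithelium, fell from 10484 and 9845 to 8009 and 8075 (−0.34 ± 0.09, adjusted p = 0.0299), and Cdh2, the N-cadherin that fibers keep, rose from 4556 and 4554 to 5929 and 5611 (0.34 ± 0.09, adjusted p = 0.0275; 1 of its 3 probe sets). The largest changes were those of Cdhr1 (−4.30) and Pcdh10 (3.71). Among desmosomal cadherins the rises were Dsg2 from 32.13 and 36.82 to 251.1 and 285.7 (2.96 ± 0.29, adjusted p = 0.000272) and Dsc2 from 1177 and 1297 to 3688 and 4050 (1.64 ± 0.14). Pcdh17, a protocadherin, was at 48.60 and 52.89 at 0 hr, 70.83 and 50.20 at 4 hr and 358.0 and 344.6 at 12 hr, and all 3 of its probe sets rose. Cdh3, the P-cadherin, fell from 378.4 and 464.2 to 123.3 and 132.2. Omission of 0 hr array 1, 0 hr array 2, 12 hr array 1 or 12 hr array 2 left 8, 7, 8 and 7 rises and 3, 4, 4 and 3 falls.

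Integrins anchor cells to the capsule, and 6 of 17 genes of this group rose. Itga6, the α6 chain that binds laminin, went from 1029 and 1027 to 2597 and 3071 (1.46 ± 0.19, adjusted p = 0.00126; 2 of its 4 probe sets), Itga3 from 786.5 and 699.3 to 1309 and 1295, and Parvb, which links integrins to actin, from 241.0 and 276.9 to 902.2 and 841.4. Itgb5 fell by 0.46, a call lost without 0 hr array 1, 0 hr array 2 or 12 hr array 2. In the matrix itself 4 of 37 collagens, laminins and related proteins rose and 4 fell. Fbn2 rose by 4.53 ± 0.19 (limma adjusted p = 1.25e-05) and Nid2 (nidogen) from 94.02 and 88.66 to 375.6 and 645.8, while Col9a1 fell from 902.4 and 1119 to 290.2 and 224.0. The matrix rises were 2, 3, 3 and 2 and its falls 3, 2, 2 and 4 when 0 hr array 1, 0 hr array 2, 12 hr array 1 or 12 hr array 2 was left out.

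Of 27 actin and contractile genes 5 fell and 1 rose. Myl9, a myosin light chain, fell from 748.3 and 845.3 to 316.2 and 327.7 (−1.30, adjusted p = 0.00106) and Tpm1, a tropomyosin, from 1388 and 1311 to 567.2 and 640.1. Of the 27, 16 were below their 4 hr level, as were 11.9% of all probe sets. Beside this stand the markers of muscle: 7 of 8 lay below the median of the array at 0 and 12 hr, and Des (desmin) fell from 1345 and 1512 to 720.1 and 635.4. Their summed level was 1518 and 1692 at 0 hr, between 5063 and 7873 at 2 and 4 hr, and 890.5 and 800.6 at 12 hr, and their part in the result was not tested. The 5 falls were 2, 1, 1 and 1 without 0 hr array 1, 0 hr array 2, 12 hr array 1 or 12 hr array 2. Among 22 other intermediate filament genes Vim (vimentin) fell from 18379 and 17821 to 13684 and 13364 while Krt12 rose by 5.25 and Nefm, a neurofilament, from 45.78 and 46.69 to 225.4 and 164.8, with 3 rises and 2 falls in all, of which the falls were 1, 0, 1 and 0 in these 4 omissions.

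Of the lens fiber genes, Caprin2 alone was called higher than at 0 hr. The 8 α- and β-crystallins, the main proteins of the fiber, ran from −1.85 to 0.33 and none was called by limma. Of these 8, 2 were lower at an unadjusted p under 0.05 and none by the analysis of variance. Cryaa differed by 0.09 and Cryab by −0.06. Both probe sets lie at the top of the brightness range, with a mean log2 intensity of 14.54 for Cryaa and 14.23 for Cryab. A rise may not show so near the upper limit of the signal, so these values do not decide whether the 2 transcripts changed. Of 6 γ-crystallins, Crygs fell from 537.6 and 434.4 to 195.7 and 103.8 (−1.76 ± 0.42, adjusted p = 0.0192), a call that was lost without 0 hr array 1, 0 hr array 2 or 12 hr array 2 and kept without 12 hr array 1. The 2 arrays of 12 hr disagreed on this group more than on most: Cryga read 726.5 on array 1 and 90.34 on array 2, Crygb 302.8 and 58.57, Cryba2 509.7 and 232.0, and Cryba4 638.4 and 294.9. Array 1 was the higher of the 2 in all of them.

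Of 9 genes of the fiber membrane and bead filament 1 rose and 4 fell. Mip, the main water channel of the fiber, read 319.7 and 390.2 at 0 hr, 117.9 and 143.8 at 4 hr, 164.8 and 52.78 at 12 hr and 353.1 and 399.6 at 24 hr (−1.92 ± 0.42 against 0 hr, adjusted p = 0.0124). Bfsp2, the phakinin of the bead filament, fell from 3597 and 3799 to 1680 and 1526 (−1.21 ± 0.19, adjusted p = 0.00289), and read 3029 and 2970 at 24 hr. Gja3, a connexin of the fiber, fell from 5025 and 4859 to 2863 and 2710, and Bfsp1 from 252.3 and 272.5 to 183.8 and 163.0. Caprin2, an RNA-binding protein of the fiber, rose from 1271 and 1232 to 2411 and 2601 (1.00 ± 0.09, adjusted p = 0.000155). These 4 were also called lower at 4 than at 0 hr. The falls were 1, 1, 3 and 2 without 0 hr array 1, 0 hr array 2, 12 hr array 1 or 12 hr array 2.

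Of 9 genes of the lens epithelium 5 fell and none rose, Sfrp2 by 1.20, Sfrp1 by 0.79, Gja1 by 0.65 and Pax6 and Cdh1 by 0.34. Pax6, the factor that defines the eye field, read 9866 and 9836 at 0 hr and 7654 and 7904 at 12 hr. The 5 falls were 2 without each of 0 hr array 1, 0 hr array 2, 12 hr array 1 and 12 hr array 2. Foxe3, which keeps the epithelium dividing, was not below 0 hr: 917.9 and 907.2 at 0 hr, 1131 and 1206 at 12 hr (0.36, adjusted p = 0.218) and 446.8 and 364.2 at 24 hr (1.53 higher at 12 hr, adjusted p = 0.00369). Of 24 transcription factors of the lens lineage 8 rose and 4 fell, among them Gata3 (438.0 and 318.1 against 847.6 and 975.6, 1.28 ± 0.20, adjusted p = 0.00284), Six3 (73.65 and 74.25 against 120.7 and 160.2), Mycn (1460 and 1439 against 2544 and 2576) and Hmx1 (4493 and 4790 against 2044 and 1744). Prox1, Sox1 and Maf, factors of fiber differentiation, differed by 0.23, 0.08 and 0.33 on their brightest probe sets and were not called. Of their other probe sets 1 of Prox1 (0.87 ± 0.23, limma adjusted p = 0.028) and 2 of Maf (1.02 ± 0.11, adjusted p = 0.000493, and 0.98 ± 0.15, adjusted p = 0.00224) were called higher, so the result for these 2 genes depends on the probe set. Against 24 hr 7 of the 24 were higher at 12 hr and none lower, where 2.91% of all genes were higher and 3.00% lower. In the lineage group the rises were 4, 4, 6 and 3 and the falls 1 each without 0 hr array 1, 0 hr array 2, 12 hr array 1 or 12 hr array 2.

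Of 40 synaptic and secretory granule genes 9 rose and 2 fell, Chga with the largest rise (4.15). Pcsk2, a prohormone convertase, went from 158.5 and 159.9 to 800.0 and 712.5 (2.25 ± 0.35, adjusted p = 0.00284), and Vgf, a granule protein, from 324.3 and 404.7 to 2145 and 1947 (2.50 ± 0.13, adjusted p = 2.35e-05). Bdnf, the neurotrophin, read 60.40 and 64.67 at 0 hr and 116.3 and 253.7 at 12 hr. A dimmer probe set of Bdnf differed by 0.16 and was not called (limma adjusted p = 0.393). Ncam1 fell from 343.2 and 345.5 to 155.8 and 137.9. The 9 rises were 5, 7, 8 and 7 without 0 hr array 1, 0 hr array 2, 12 hr array 1 or 12 hr array 2. Most of the 43 channels and glutamate receptors were not called (3 rose and 4 fell). The rises were Gria2 (6.21 ± 0.54, limma adjusted p = 0.000177), Scn3b and Cacna2d1. Kcnmb4, a subunit of a calcium-activated potassium channel, fell from 344.6 and 356.1 to 133.0 and 135.3. The channel falls were 2, 1, 1 and 1 without 0 hr array 1, 0 hr array 2, 12 hr array 1 or 12 hr array 2. Of 17 aquaporins and sodium pump subunits 3 rose and 1 fell. The pump's β subunits differed among themselves, Atp1b1 rising from 651.9 and 664.1 to 2995 and 3638 (2.33 ± 0.27) and Atp1b2 from 123.1 and 126.9 to 732.6 and 896.8 (2.70 ± 0.16), while Atp1b3 fell from 8012 and 8209 to 5208 and 5797.

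The circadian clock was among the groups with the largest share of falls, 8 of 17 genes with 1 rise and a median of −0.59. The clock is a loop in which Bmal1 with Clock or Npas2 drives Per, Cry and the PAR-bZIP genes through E-boxes. Per2 read 902.4 and 754.0 at 0 hr, 854.6 and 898.0 at 2 hr, 355.7 and 578.7 at 4 hr, 201.0 and 164.3 at 12 hr and 644.5 and 544.0 at 24 hr (−2.18 ± 0.22 against 0 hr, adjusted p = 0.000305). Both arrays of 12 hr were below the other 8, and the difference from 24 hr was −1.70 (adjusted p = 0.00514). The PAR-bZIP genes Tef, Hlf and Dbp fell, with differences of −1.36, −1.43 and −0.59, as did Per3 (−1.05), Nr1d2 (−0.89), Clock (−0.64) and Cry2 (−0.49). Npas2 went the opposite way, 28.23 and 30.82 at 0 hr, 333.4 and 357.0 at 4 hr, 140.2 and 128.0 at 12 hr and 40.80 and 38.06 at 24 hr (2.18 ± 0.09, adjusted p = 1.25e-05). Without 0 hr array 1, 0 hr array 2, 12 hr array 1 or 12 hr array 2 the falls were 8, 5, 6 and 7. The arrays of a series that runs through 24 hr carry the hour of day along with the hours of treatment, and the clock hour of each culture is not given in the sources used here.

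The promoters of 2 clock genes that fell are shown with the E-box letters CACGTG or CACGTT in capitals, on the strand shown. Per2 is at chr9:99496994-99497115, minus strand, its match starting 62 bases before the start site. Tef is at chr7:115206577-115206694, plus strand, its match starting 198 bases before.
Per2: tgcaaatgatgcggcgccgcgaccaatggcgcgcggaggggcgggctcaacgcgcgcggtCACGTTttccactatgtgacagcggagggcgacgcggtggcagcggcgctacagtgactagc
Tef: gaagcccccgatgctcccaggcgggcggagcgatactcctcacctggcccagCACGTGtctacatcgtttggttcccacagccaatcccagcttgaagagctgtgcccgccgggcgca
These letters, on either strand, are in 10.9% of all promoters. They are in 3 of the 7 clock genes with a promoter in the table that fell (Cry2, Per2, Tef), in 3 of the 7 not called (Bhlhe40, Bhlhe41, Nr1d1) and not in that of the 1 that rose.

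Glycolysis and the hypoxia response held 11 rises and 5 falls among 30 genes. Pfkp, the platelet form of phosphofructokinase, rose from 812.4 and 753.3 to 2059 and 2373 (1.50 ± 0.11, adjusted p = 8.88e-05) and the liver form Pfkl from 359.1 and 420.1 to 785.2 and 800.1. The muscle form Pfkm fell from 286.7 and 322.9 to 139.9 and 155.8 on its brightest probe set, with 1 of the other 2 also lower and 1 higher. The glucose carrier Slc2a1 rose from 8263 and 8351 to 11733 and 13362. Car9 and Ankrd37, induced by hypoxia in many cells, rose from 136.6 and 160.1 to 316.9 and 453.8 and from 143.9 and 149.7 to 340.3 and 473.7. Hif1a, the factor of that response, fell from 11014 and 10931 to 7266 and 7334, and Aldoc, the brain form of aldolase, from 3852 and 4129 to 1404 and 1317. Against 4 hr, 17 of the 30 were higher at 12 hr, as were 11.0% of all probe sets. The rises were 3, 4, 7 and 2 without 0 hr array 1, 0 hr array 2, 12 hr array 1 or 12 hr array 2, and the falls 4 each. TACGTG, the core of a hypoxia response element, is in 3.49% of all promoters on either strand, and in 3 of the 9 that rose, 2 of the 5 that fell and 4 of the 13 not called.

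Inflammatory genes were in part below 4 hr and in part still above 0 hr. Of 35 cytokines, chemokines and secreted proteases, 16 were below 4 hr at 12 hr, as were 11.9% of all probe sets, and 9 were still above 0 hr with 3 below. Cxcl1 read 125.5 and 101.6 at 0 hr, 2285 and 1992 at 4 hr and 245.0 and 407.6 at 12 hr (1.49 ± 0.26 against 0 hr, adjusted p = 0.00436), and Mmp13 23.94 and 38.16, 678.1 and 921.2, and 130.7 and 130.4. Cxcl12 took no part in the early rise and fell from 156.9 and 203.8 to 33.75 and 44.49 (−2.21 ± 0.26, adjusted p = 0.000651). Among macrophage markers limma called none of 11 (1 higher at an unadjusted p, none by the analysis of variance), with a summed level of 568.7 and 459.1 at 0 hr and 566.5 and 677.1 at 12 hr, and 10 of the 11 below the array median. The 9 rises were 2, 5, 3 and 4 when 0 hr array 1, 0 hr array 2, 12 hr array 1 or 12 hr array 2 was left out.

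Of 21 interferon-stimulated genes 7 fell and none rose by limma, with 1 higher at an unadjusted p and none higher by the analysis of variance. Ifi27 fell from 1273 and 1068 to 366.9 and 403.0 (−1.60 ± 0.33, adjusted p = 0.0107), Ifit2 from 95.64 and 53.57 to 24.06 and 25.20, and Mx2 from 167.8 and 113.1 to 46.47 and 49.44, where its second probe set was not called. Stat2 and Irf9, which form the factor that drives these genes, fell by 0.48 and 0.75. The falls were 3, 9, 3 and 4 without 0 hr array 1, 0 hr array 2, 12 hr array 1 or 12 hr array 2.

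The antioxidant group had 4 rises and 7 falls among 35. Selenop fell by 2.96, the largest change of the group. Hmox1, heme oxygenase, rose from 393.0 and 389.8 to 872.6 and 1128 (1.34, adjusted p = 0.00168), while Nqo1, Gclm and Gstm2 fell, Gclm and Gstm2 with differences of −0.78 and −1.09. Its falls were 4, 3, 3 and 5 and its rises 2, 2, 2 and 3 without 0 hr array 1, 0 hr array 2, 12 hr array 1 or 12 hr array 2. Of 20 heat shock genes Bag3 and Hsf1 rose and 4 fell, the largest being Hspa2, from 1392 and 1427 to 458.3 and 445.2. In lipid genes Pdk4, the kinase that holds back glucose oxidation, fell from 1834 and 1573 to 337.1 and 223.2, 1 of 2 falls with 3 rises among 21, and of 19 genes of cholesterol synthesis Hsd17b7 rose and Pmvk fell. The rise of Hsd17b7 was lost without 0 hr array 1 or 12 hr array 2, and in this group 11 genes rose in the fit without the 2 and 4 hr arrays and 9 with array weights. Of 31 autophagy and lysosome genes 5 fell, by 0.42 (Ulk2) to 0.63 (Sqstm1), and 1 rose. Of 20 ER chaperones and unfolded protein response genes 3 fell and 1 rose, which were 1, 1, 1 and 0 falls without 0 hr array 1, 0 hr array 2, 12 hr array 1 or 12 hr array 2. Herpud1 fell from 705.1 and 728.9 to 274.0 and 202.1 and Hyou1 rose from 324.9 and 296.0 to 580.3 and 531.9.

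In the remaining groups few genes were called. Oxidative phosphorylation had 1 rise and 2 falls among 46 (the largest Ndufv2, −0.47), the proteasome 1 of each among 33 (Psmb7 up by 0.72, the immunoproteasome subunit Psmb9 down by 0.98), and the miRNA machinery 1 rise (Xpo5, 0.37) and 2 falls among 18 (the larger Tnrc6c, −0.59). The calls of these 3 groups in either direction, the falls and the rise in autophagy and the rises among lipid genes were 0 or 1 each without 0 hr array 1, 0 hr array 2, 12 hr array 1 or 12 hr array 2, and the lipid falls were 1, 1, 1 and 2.

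**Figure D4:**
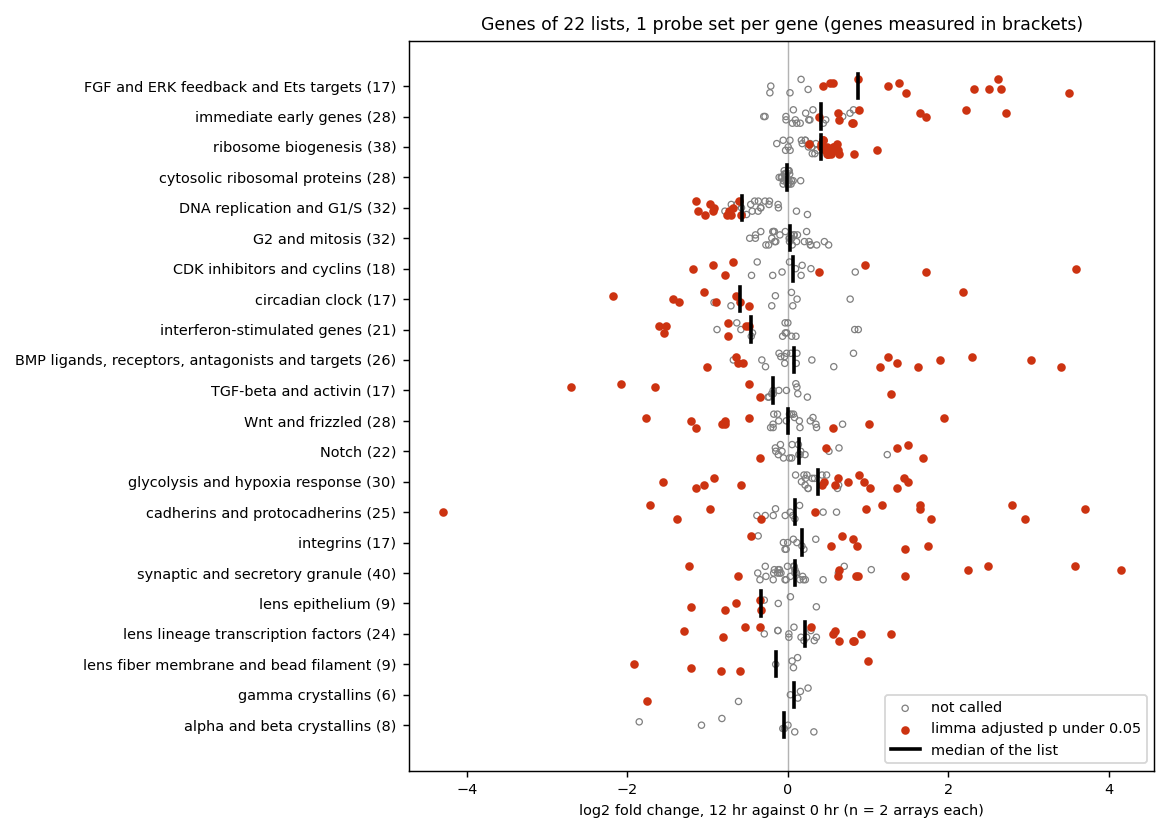
Log2 fold change of 12 hr against 0 hr (horizontal axis, 2 arrays each) of every measured gene of 22 lists (vertical axis, number of genes in brackets); filled red points passed an adjusted p under 0.05 in limma, open points did not, and the black bar is the median of the list. The medians of the feedback, ribosome biogenesis and immediate early lists lie at 0.87, 0.41 and 0.42, and those of the clock and replication lists at −0.59 and −0.57.

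Markers of other cells that a lens explant could hold are given for the whole lists. Of 8 endothelial markers Tek, Emcn and Vwf fell, by 1.63, 1.68 and 1.21, and Kdr rose by 1.21, a call lost without 0 hr array 1, 0 hr array 2, 12 hr array 1 or 12 hr array 2, and the summed level was 1682 and 2113 at 0 hr and 1303 and 1208 at 12 hr, with Pecam1, Tie1 and Flt1 below the array median. Retina markers (8) and pigment cell markers (4) were all below the array median, and of these Rlbp1 fell by 0.68. Red cell markers (4) summed to 2219 and 2261 at 0 hr and 1621 and 1493 at 12 hr, and fibroblast markers (8) to 2050 and 1979 against 2268 and 2402. Of the red cell markers 3 (Alas2, Slc4a1 and Epb42) lay below the array median, so that sum rests mainly on Hbb. Of the fibroblast markers 5 lay below it (Col1a1, Col3a1, Lum, Pdgfrb and Thy1). By limma none of the red cell, fibroblast or pigment markers was called; at an unadjusted p there was 1 red cell marker lower, as by the analysis of variance, which also had 1 fibroblast marker higher. In bulk RNA fewer cells of a type and less RNA per cell cannot be told apart, and the part of these cells in any result was not tested. The labelled tissue was borne out by its own genes: the 8 α- and β-crystallins summed to 70624 and 70034 at 0 hr and to 69452 and 63165 at 12 hr.

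Between 12 and 4 hr 7116 probe sets were called (22.9%), 3414 higher at 12 hr (11.0%) and 3702 lower (11.9%), and between 12 and 24 hr 1348 (4.34%), 659 higher at 12 hr (2.12%) and 689 lower (2.22%). These comparisons share the 12 hr arrays with that against 0 hr. The comparison with 4 hr, and with it the maxima and minima below, also sets arrays of different runs against each other. The count against 24 hr was 297 without 12 hr array 1, 180 without 12 hr array 2, 582 and 479 without 24 hr array 1 or 2, and 794 without either array of 0 hr, and that against 4 hr was 3649 without 12 hr array 1 and 3382 without 12 hr array 2. A level at 12 hr above each of 0, 4 and 24 hr was found in 148 probe sets (107 genes), 26 of them by more than 2-fold in all 3 comparisons. A level below each was found in 95 (64 genes), 11 of them by more than 2-fold. With the Actb ratio of RNA integrity in the fit, which was lower on the 24 hr than on the 12 hr arrays, the maxima were 75 and the minima 57. The maxima were 48 without 12 hr array 1, 21 without 12 hr array 2, 83 and 48 without 24 hr array 1 or 2 and 73 and 72 without 0 hr array 1 or 2, and the minima 22, 9, 46, 38, 54 and 52 in the same order.

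First among the maxima by this ranking was Ptpn5, a tyrosine phosphatase of neurons that acts on ERK and other kinases. It read 44.29 and 41.34 at 0 hr, 108.0 and 78.86 at 4 hr, 390.2 and 452.1 at 12 hr and 78.97 and 76.02 at 24 hr, 2.44 above 24 hr (adjusted p = 0.00229). Septin5, a filament-forming GTPase, read 34.94 and 31.75 at 0 hr, 167.6 and 171.1 at 12 hr and 59.48 and 56.37 at 24 hr (1.55 above 24 hr, adjusted p = 0.000574). Unc5b, a netrin receptor, was at 68.10 and 67.30 at 0 hr, 283.8 and 276.0 at 12 hr and 89.09 and 118.7 at 24 hr. In all 3 both 12 hr arrays lay above the other 8. The maxima, and the minima below, were chosen by their differences from 0, 4 and 24 hr, so these values describe and do not test. Cbln1, a synaptic organizer, Ppm1j, a phosphatase, and Tacr3, the neurokinin B receptor, were 1.76, 1.49 and 1.36 above 24 hr. Col25a1, Lrrn3, Fam181b and Agtr1b complete the 10.

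Of the minima, Cd302, a C-type lectin receptor, read 73.95 and 70.52 at 0 hr, 83.61 and 57.20 at 4 hr, 24.46 and 17.76 at 12 hr and 75.75 and 61.73 at 24 hr. Dnajc6, which uncoats clathrin vesicles, was at 239.7 and 260.8 at 0 hr, 214.3 and 262.0 at 4 hr, 53.10 and 42.78 at 12 hr and 91.84 and 118.3 at 24 hr (−1.13 against 24 hr, adjusted p = 0.00876). Limch1, an activator of non-muscle myosin II, read 838.7 and 906.7 at 0 hr, 295.9 and 271.4 at 12 hr and 552.8 and 671.9 at 24 hr. Each of these was at its lowest at 12 hr on both arrays. Nqo2, Olfm1, Prune2, Lamp3, the histone gene H2ac25, Dync1i1 and Per2 are the other 7. Histone genes have near-identical copies whose transcripts 1 probe set may share, so H2ac25 is uncertain.

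**Figure D5:**
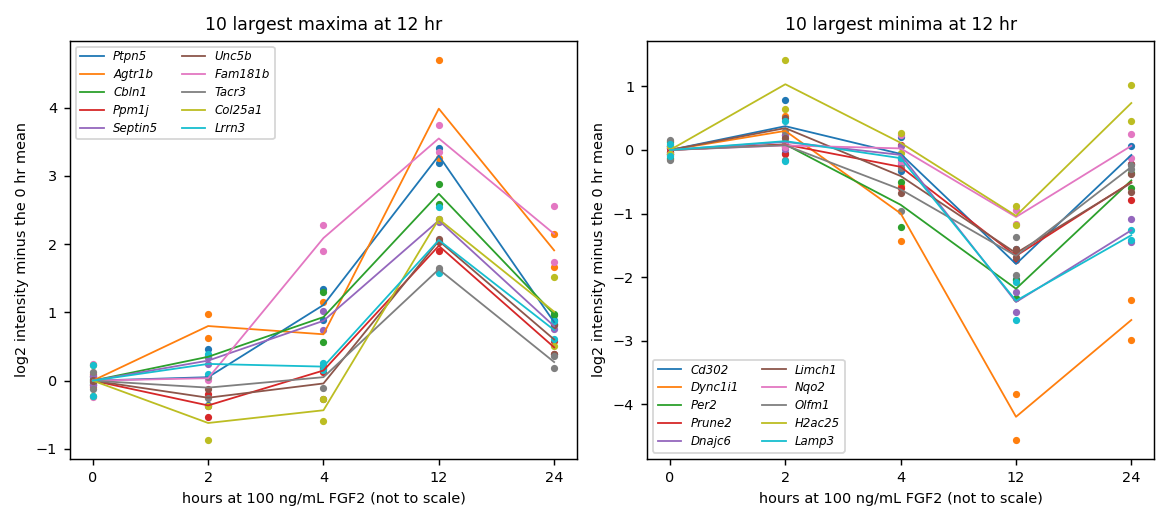
Log2 intensity minus the 0 hr mean (vertical axes) at each time at 100 ng/mL FGF2 (horizontal axes, not to scale) for the 10 largest maxima (left) and minima (right) at 12 hr; lines join means and points are single arrays. Ptpn5 reaches 3.30 at 12 hr and Dync1i1 −4.20, and the means of all 20 lie nearer to 0 at 24 hr than at 12 hr.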

How the data were processed

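Messenger RNA of rat lens explants was measured on Affymetrix arrays, 2 for each of 5 time points: 0 hr, taken once the overnight culture at 5 ng/mL FGF2 had ended, and 2, 4, 12 or 24 hr later, with FGF2 raised to 100 ng/mL. The authors deposited robust multichip average (RMA) intensities on a linear scale; the software version is not given in the sources used here. Log2 was taken of these intensities, control probe sets were left out, and 31042 probe sets were fitted with limma 3.58.1 in R 4.3.3, with 1 mean per time point over all 10 arrays (5 residual degrees of freedom). A call is a Benjamini-Hochberg adjusted p under 0.05 over all probe sets. Arrays give no read depth, and their number limits the precision.

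Of the probe sets, 20826 carried 1 gene symbol (14217 genes), 436 several and 9780 none, and genes were named from the first kind only. A listed gene is represented by its brightest probe set over all 10 arrays. Other probe sets of a named gene are not always given, and some of them were not called. The text names the 20 largest rises and 20 largest falls whose arrays do not overlap, selected members of the gene lists, and the 10 largest maxima and minima at 12 hr, ranked by the smallest of 3 differences. The comparison and the gene lists were chosen with earlier results of these data known. Promoters are RefSeq sequences (GRCr8), found for 861 of 1062 listed genes. The fit was tested on simulated data. Alternatives covered normalization, filters, array weights, a replicate block, the analysis of variance of the study's methods and the omission of each array.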

Additional observations from a re-analysis of the deposited data

Results flagged for a closer look

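The levels at 12 hr were set against those at the other times of the same dose by a test of the difference itself, in limma. Between 12 and 24 hr 1348 probe sets differed, and between 12 and 4 hr 7116. Among the 10 largest maxima at 12 hr the log2 difference from 24 hr was 2.44 for Ptpn5, 2.08 for Agtr1b, 1.76 for Cbln1, 1.49 for Ppm1j, 1.55 for Septin5, 1.44 for Unc5b, 1.40 for Fam181b, 1.36 for both Tacr3 and Col25a1, and 1.32 for Lrrn3. Among the 10 largest minima it was −1.71 for Cd302, −1.52 for Dync1i1, −1.70 for Per2, −1.16 for Prune2, −1.13 for Dnajc6, −1.10 for Limch1, −1.12 for Nqo2, −1.40 for Olfm1, −1.77 for H2ac25 and −1.03 for Lamp3. These 20 genes were chosen for the size of such differences, so the values describe them.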

How the results depend on the processing

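No probe set called between 12 and 0 hr was called in the opposite direction in any alternative. With a 0 or 12 hr array omitted this was fixed in advance, since no called probe set overlapped. It was also fixed wherever the log2 differences stayed the same, as with unadjusted p, the analysis of variance or arrays of other times left out. The count of 5886 was 9845 with array quality weights, 9205 with the arrays of this comparison alone, 9467 at an unadjusted p, and 9031 by the analysis of variance of the study's methods at an unadjusted P, but 0 by that test after Benjamini-Hochberg adjustment. Omitting each array in turn gave 2879 to 6694. Against 24 hr the count of 1348 was 2864 with array weights, 2938 without the 2 and 4 hr arrays, 5531 at an unadjusted p, and 4550 (unadjusted) or 0 (adjusted) by the analysis of variance, and 180 to 1715 with an array omitted. Against 4 hr the count of 7116 was 10985 at an unadjusted p and 0 by the adjusted analysis of variance, and 3382 to 7884 with an array omitted. With the replicate number as a block the counts were 5596, 1174 and 6758. The numbers do not pair the arrays, since the deviations of 12 hr arrays correlated by −0.037, −0.026, −0.003 and −0.147 with those of 0, 2, 4 and 24 hr. With the numbers of 24 hr crossed, a choice made after seeing the data, 1391 were called between 12 and 24 hr. Of 229 named genes called at 12 against 0 hr, 61, 61, 52 and 68 lost the call without 0 hr array 1, 0 hr array 2, 12 hr array 1 or 12 hr array 2. The maxima were 75 and the minima 57 with the Actb ratio as a covariate.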
